A study of Mus musculus with 8 samples.

Results

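Mir182, Mir183 and Mir96 are 3 miRNA genes that lie next to each other on mouse chromosome 6, and their reads were followed by length and 3′ end in small RNA libraries of male germ cells. Members were all 20 to 28 nt sequences whose first 18 nt or more were found exactly, on the sense strand, in the GENCODE transcript of 1 of the 3 genes. This gave 668 distinct sequences (367 of Mir182, 262 of Mir183 and 39 of Mir96) among 20459 that matched 1079 miRNA genes or groups of genes sharing the same reads. The genes were chosen by measured values of these same libraries, since Mir182 was already known from them as an abundant RNA with forms of piRNA length. Mir182 is therefore described without any test, and tests are given for Mir183 and Mir96 alone.

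The study asked whether mouse Primordial Germ Cell-Like Cells (mPGCLCs), made in culture from embryonic stem cells, hold piRNAs as fetal male germ cells do. Male mPGCs carrying the GOF18 reporter, in which EGFP follows Pou5f1 (Oct4), came from genital ridges of 3 fetal ages (E12.5, E13.5 or E15.5), with 2 libraries per stage and 2 pooled embryos per library, each replicate from a different litter. The mPGCLCs came from day 6 (D6) embryoid bodies of SGET, a male stem cell line of B6CBA/129 background that carries Stella-GFP and Esg1-tdTomato, and were sorted as GFP-positive and tdTomato-negative, again with 2 libraries. For the mPGCs, the labels give strain C57BL/6J and a sort on SSEA1 and CD61, whereas the methods give an FVB/C57BL/6J background and a sort on EGFP. SGET is 1 line, and no source states that its replicates were separate differentiations, so their spread may be technical.

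miRNAs are cut by Drosha and Dicer from hairpin transcripts, and a strand of the duplex is loaded into an Argonaute protein, which finds target mRNAs through the seed, bases 2 to 8 of the miRNA. After cutting, single bases can be trimmed from the 3′ end or added to it by terminal nucleotidyltransferases, and such variants are called isomiRs. The Mir183/96/182 cluster is best known from sensory organs, where the 3 miRNAs are made together from 1 primary transcript. piRNAs are bound by PIWI proteins, are longer than most miRNAs and usually begin with U, so a long miRNA that begins with U can come close to them in length and first base.

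All 3 genes lay on the minus strand of GRCm38 within 3820 nt. Mir183 (ENSMUSG00000065619.2) was at chr6:30169668-30169737, Mir96 (ENSMUSG00000065586.1) at chr6:30169446-30169551 and Mir182 (ENSMUSG00000076361.1) at chr6:30165918-30165992, so that in the direction of transcription Mir183 came first, Mir96 followed after 116 nt and Mir182 after a further 3453 nt. Each was annotated as a gene of its own and overlapped no other gene in GENCODE M21. The nearest neighbours were Nrf1, 12459 nt away, and the lincRNA Rncr4, 3155 nt away, both on the plus strand. The mature sequences that account for most reads of each gene are shown with the seed in capitals, as RefSeq gives them for GRCm38.p6.
miR-183-5p: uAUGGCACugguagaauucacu
miR-96-5p: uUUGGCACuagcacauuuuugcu
miR-96-3p: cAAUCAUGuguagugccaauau
miR-182-5p: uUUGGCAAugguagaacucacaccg
The 5p sequences were at chr6:30169711-30169732 for Mir183, chr6:30169506-30169528 for Mir96 and chr6:30165962-30165986 for Mir182, and that of miR-96-3p at chr6:30169465-30169486. No pair of the 3 shared a whole seed, but of the first 8 bases Mir182 shared 7 with Mir96 and 6 with Mir183. Over their whole length Mir182 was more like Mir183, with 18 of 22 positions identical against 12 of 23 with Mir96. The annotated miR-182-5p is 25 nt long and begins with U, whereas miR-183-5p has 22 nt and miR-96-5p 23 nt.

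The isoforms that carry the results are shown as sequenced, with T for U. Capitals mark the 3′ bases from the first that does not match the hairpin onwards. For Mir182 the isoforms shown are the leading sequences of 23 to 28 nt and for Mir183 the leading pair of 5′ ends and the leading form with an added base.
Mir182 23 nt: tttggcaatggtagaactcacac
Mir182 24 nt: tttggcaatggtagaactcacacc
Mir182 25 nt: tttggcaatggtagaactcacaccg
Mir182 26 nt with A: tttggcaatggtagaactcacaccgA
Mir182 26 nt with U: tttggcaatggtagaactcacaccgT
Mir182 27 nt with AA: tttggcaatggtagaactcacaccgAA
Mir182 28 nt with AAA: tttggcaatggtagaactcacaccgAAA
Mir183 22 nt: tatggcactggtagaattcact
Mir183 22 nt, later start: atggcactggtagaattcactg
Mir183 24 nt with A: tatggcactggtagaattcactgA
All Mir182 forms shown share 1 start and so 1 seed and differ at the 3′ end, whereas the later start of Mir183 moves its seed by 1 base. Reads were kept by the authors only if they mapped to the genome end to end with at most 2 mismatches, so tails that would need more mismatches are missing. An added base directly after the matched stretch that happens to equal the next genomic base is counted as templated. After a first mismatch, bases that match the hairpin again are still counted as non-matching.

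Library totals ran from 7447873 to 26552524 mapping reads, so 3 counts correspond to 1.13e-05% to 4.03e-05% of a library. Reads matching any miRNA gene made up 17.4% and 28.01% of mapping reads at E12.5, 19.7% and 29.1% in E13.5 mPGCs, 3.11% and 2.66% in E15.5 mPGCs and 20.2% and 31.1% in SGET mPGCLCs. A share of mapping reads is thus low for most miRNAs at E15.5, where reads of 25 to 27 nt beginning with U alone took 39.6% and 38.2%. Both denominators are given for this reason, and fewer cells of a type, less RNA per cell and dilution by other small RNAs cannot be told apart in such shares. As a check of the sort, a list of 10 germ and pluripotent cell miRNAs (Mir290a, Mir291a, Mir292 to Mir295 and Mir302a to Mir302d) had reads of each gene in every group. They summed to 4.96% to 7.79% of mapping reads in E12.5 mPGCs and 4.31% to 6.16% in E13.5 mPGCs. In E15.5 mPGCs the sum was 0.326% to 0.455% and in SGET mPGCLCs 7.2% to 11.1%. A list of 12 blood, vessel and gonadal soma miRNAs summed to 0.0457% to 0.0605% in E12.5 mPGCs, 0.0529% to 0.181% in E13.5 mPGCs, 0.0226% to 0.0553% in E15.5 mPGCs and 0.134% to 0.241% in SGET mPGCLCs. Of this list Mir451a and Mir144, which are erythroid markers, had no reads in any E12.5 or SGET library. Mir486 of the same list was present, with 60 and 267 reads in the E12.5 libraries. The first SGET library held 147 reads of Mir486 and the second 0, and the second E15.5 library held 2671. Mir223 was at 0 in E12.5 mPGCs, Mir142 and Mir202 in SGET mPGCLCs and Mir144 in E15.5 mPGCs. Mir202, listed for gonadal supporting cells, had 1112 and 2389 reads at E12.5 and 3290 and 9736 in E13.5 mPGCs. In E15.5 mPGCs it had 832 and 2908. Mir199a-1 had 1716 and 13585 reads in E13.5 mPGCs, against 5420 and 6632 in SGET mPGCLCs. Other genes of the list stood higher in SGET mPGCLCs, where Mir143 had 5475 and 11285 reads against 1227 and 1850 at E12.5, and Mir214 1350 and 3808 against 3 and 186. The median log2 fold change of the 10 features of the list that were tested was 2.29 for SGET minus E12.5, with 1 called lower and none higher. For E15.5 minus E13.5 it was -1.49, against -3.21 over all miRNA genes, with none called. Scaled to miRNA-matching reads, it was 1.79 against 0.0, again with none called. The germ and pluripotent list had medians of -3.76 and -0.69 on these scales. The part of blood, vessel and soma cells in the results was not tested. The second E15.5 library stood apart in its 3′ and 5′ ends, as described with each result.

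Mir182 and Mir183 were among the most abundant miRNA genes of these germ cells. Mir182 ranked 2 to 4 among miRNA genes in every library. Mir183 ranked 3 to 5 in all but the second E15.5 library, where it ranked 11. Mir96, from the same stretch of the chromosome, ranked between 61 and 251.

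Mir182, whose miRNA has forkhead transcription factors among its known targets, took 1.47% and 2.81% of mapping reads at E12.5, 1.54% and 2.26% in E13.5 mPGCs, 0.199% and 0.144% in E15.5 mPGCs and 0.886% and 1.001% in SGET mPGCLCs. The E12.5 and E13.5 libraries overlapped, the SGET libraries lay below both, and the E15.5 libraries were lowest. Group means were 2.14% ± 0.943 (SD, n = 2) in E12.5 mPGCs, 1.90% ± 0.505 in E13.5 mPGCs, 0.172% ± 0.0390 in E15.5 mPGCs and 0.944% ± 0.0807 in SGET mPGCLCs. Of the miRNA-matching reads, Mir182 took 8.45% and 10.02% in E12.5 mPGCs, 7.82% and 7.75% in E13.5 mPGCs, 6.40% and 5.42% in E15.5 mPGCs and 4.38% and 3.22% in SGET mPGCLCs. On this scale no groups overlapped and the order changed, with SGET mPGCLCs lowest and E15.5 between them and E13.5. How many of all miRNA genes also lacked overlap was not counted, here or for the later statements of this kind. With 2 libraries in each group, groups can easily separate by chance, so these statements only describe the libraries.

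Mir183 took 1.20% and 1.82% of mapping reads at E12.5, 1.20% and 1.25% in E13.5 mPGCs, 0.146% and 0.0506% in E15.5 mPGCs and 0.892% and 0.869% in SGET mPGCLCs. The SGET libraries lay below every E12.5 and E13.5 library, and the E15.5 libraries were again lowest, differing from each other by a larger factor than those of any other group. Of miRNA-matching reads, Mir183 took 6.90% and 6.496% in E12.5 mPGCs, 6.09% and 4.31% in E13.5 mPGCs, 4.69% and 1.91% in E15.5 mPGCs and 4.41% and 2.80% in SGET mPGCLCs. Here E12.5 lay above all other libraries, while E13.5, E15.5 and SGET overlapped.

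Mir96, best known for hearing loss when its seed is mutated, was rare. It took 0.0281% and 0.0459% of mapping reads at E12.5, 0.0190% and 0.0208% in E13.5 mPGCs, 0.000816% and 0.000105% in E15.5 mPGCs and 0.00783% and 0.0124% in SGET mPGCLCs. No groups overlapped. The E15.5 values rest on 111 and 28 reads (95% Wilson intervals 0.000678% to 0.000983% and 7.30e-05% to 0.000152%, counting error only), and in SGET mPGCLCs the 799 and 1184 reads belonged to only 6 and 4 distinct sequences. Of miRNA-matching reads Mir96 took 0.161% and 0.164% in E12.5 mPGCs, 0.0965% and 0.0715% in E13.5 mPGCs, 0.0262% and 0.00397% in E15.5 mPGCs and 0.0387% and 0.0400% in SGET mPGCLCs, again without overlap. With 2 libraries in each group, the smallest p of the two-sided exact permutation test is 0.33, so it could call none of these differences.

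**Figure D1:**
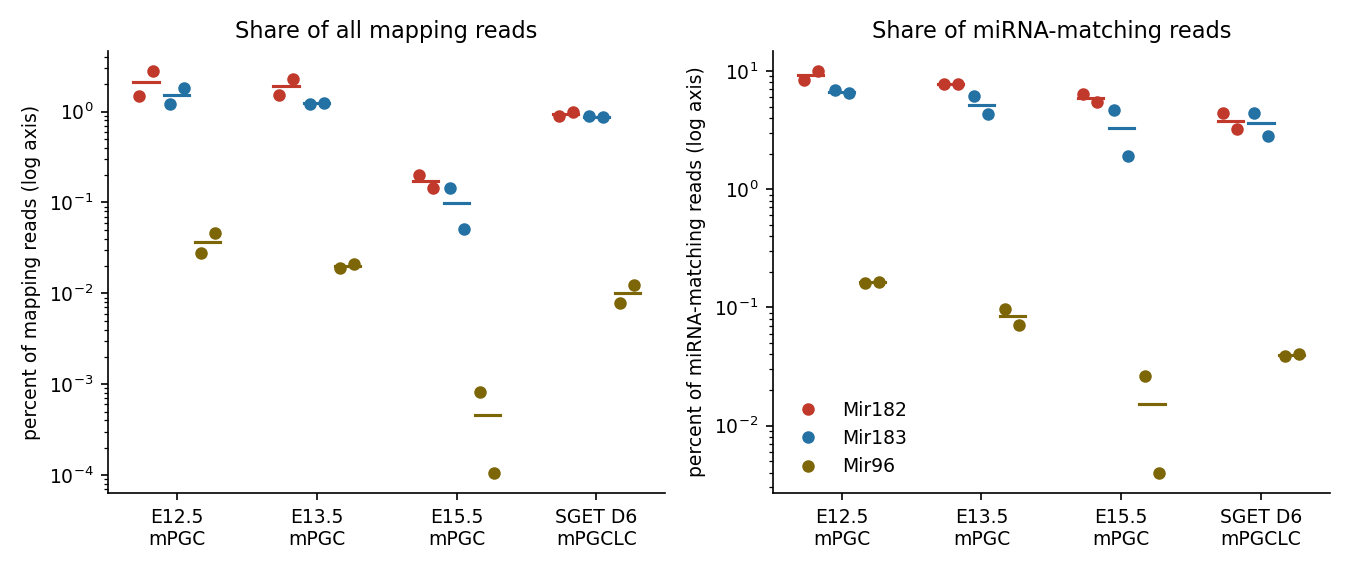
Percent of mapping reads (left) and of miRNA-matching reads (right) taken by Mir182, Mir183 and Mir96 in each library, on log axes, with points for the 2 libraries of a group and a line at their mean. On the left the E15.5 libraries are lowest for all 3 genes, whereas on the right the SGET libraries are lowest for Mir182.

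Together the 3 genes took 3.69% ± 1.39 (SD, n = 2) of mapping reads at E12.5, 3.15% ± 0.546 in E13.5 mPGCs, 0.270% ± 0.107 in E15.5 mPGCs and 1.83% ± 0.0681 in SGET mPGCLCs. Of miRNA-matching reads they took 16.1% ± 0.821 in E12.5 mPGCs, 13.1% ± 1.33 in E13.5 mPGCs, 9.22% ± 2.68 in E15.5 mPGCs and 7.44% ± 1.96 in SGET mPGCLCs. Although the 3 hairpins are known as products of 1 transcript, their reads did not keep 1 ratio. The ratio of Mir182 to Mir183 reads was 1.22 and 1.54 in E12.5 mPGCs, 1.28 and 1.80 in E13.5 mPGCs, 1.37 and 2.85 in E15.5 mPGCs and 0.994 and 1.15 in SGET mPGCLCs, with SGET below all other libraries. For every 100 reads of Mir183, Mir96 had 2.34 and 2.52 in E12.5 mPGCs, 1.58 and 1.66 in E13.5 mPGCs, 0.559 and 0.208 in E15.5 mPGCs and 0.878 and 1.43 in SGET mPGCLCs. This proportion was higher at E12.5 than at E13.5 and higher at E13.5 than at E15.5 in each library, with SGET mPGCLCs between E13.5 and E15.5. Its E15.5 values rest on only 111 and 28 reads of Mir96.

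Between E12.5 and E13.5, neither Mir183 nor Mir96 passed the quasi-likelihood test of edgeR after adjustment by Benjamini-Hochberg. The log2 fold change, E13.5 minus E12.5, was -0.30 ± 0.50 (SE) for Mir183 and -0.89 ± 1.20 for Mir96, both with an adjusted p of 1.0, and -0.17 ± 0.48 for Mir182. Of 506 miRNA genes tested 0.00% were called lower and none higher, with 7 at an unadjusted p under 0.05, and DESeq2 called 4 higher and 3 lower. With miRNA-matching reads as library size 0.00% of 533 were called lower, 5 were called higher, and Mir183 stood at -0.37 ± 0.24 (adjusted p = 0.932).

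From E13.5 to E15.5 all 3 genes were lower, together with most miRNAs. Mir183 fell by 3.64 ± 0.56 on the log2 scale (adjusted p = 1.17e-08, edgeR) and Mir96 fell by 5.44 ± 1.44 (adjusted p = 0.00169, edgeR), and the value for Mir182 was -3.47 ± 0.53. The median over all miRNA genes tested was -3.21 and 18.4% of them were called lower (93 genes) against 1 called higher. Counted from the lowest value, Mir182 stood at place 230 of 506, Mir183 at 214 and Mir96 at 105. DESeq2, which sets its own scale, called 73 genes higher and 0 lower. Scaled to miRNA-matching reads, where the median was 0.0, 0.375% were called lower (2 genes) and 21 genes higher, neither call was made, and TMM scaling and DESeq2 made neither call. Mir183 then stood at -0.66 ± 0.24 (adjusted p = 0.0965, edgeR), Mir96 at -2.48 ± 1.32 (adjusted p = 0.434, edgeR) and Mir182 at -0.40 ± 0.21. The Mir96 call was also lost without the second E15.5 library (-4.61 ± 1.76, adjusted p = 0.0972, edgeR), and with DESeq2 the value for Mir182 was 0.04 ± 2.32.

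The comparison of SGET mPGCLCs with E12.5 mPGCs asks how the cultured cells compare with germ cells before piRNAs appear. SGET minus E12.5, the log2 fold change of Mir183 was -0.78 ± 0.50 (adjusted p = 0.330, edgeR), that of Mir96 -1.87 ± 1.23 (adjusted p = 0.332, edgeR) and that of Mir182 -1.18 ± 0.48, with 2.96% of miRNA genes called lower (15 genes, and 15 higher). With miRNA-matching reads as library size, Mir183 was called lower at -0.90 ± 0.24 (adjusted p = 0.00353, edgeR), as were 6.75% of miRNA genes (36, against 19 higher and by DESeq2 25 lower and 7 higher), and Mir182 stood at -1.28 ± 0.21. Mir96 was not called on this scale either (-2.05 ± 1.30, adjusted p = 0.345, edgeR).

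Against E13.5 neither tested gene was called on either scale. SGET minus E13.5, Mir183 stood at -0.48 ± 0.50 (adjusted p = 0.592, edgeR) and Mir96 at -0.98 ± 1.20 (adjusted p = 0.667, edgeR), with 3.95% of miRNA genes called lower (20 genes, and 17 higher), and Mir182 at -1.01 ± 0.48. With miRNA-matching reads as library size the values were -0.53 ± 0.24 for Mir183 (adjusted p = 0.187, edgeR), -1.09 ± 1.26 for Mir96 (adjusted p = 0.652, edgeR) and -1.03 ± 0.21 for Mir182, with 6.94% called lower (37 genes, against 18 higher and by DESeq2 35 lower and 7 higher). Both SGET comparisons use the same SGET libraries.

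**Figure D2:**
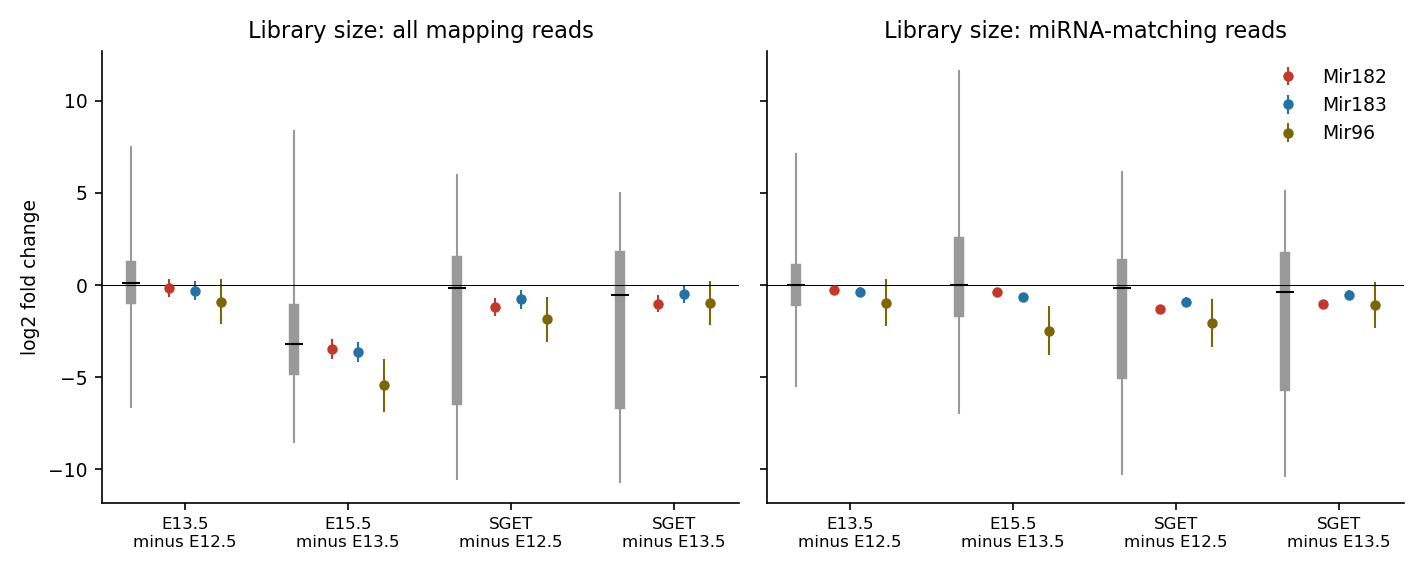
Log2 fold change of Mir182, Mir183 and Mir96 (points, bars are SE from the edgeR fit) in the 4 comparisons, with all mapping reads (left) or miRNA-matching reads (right) as library size, where grey bars give the 5 to 95 and 25 to 75 percentiles and the median over all miRNA genes tested. At E15.5 minus E13.5 Mir182 and Mir183 lie near the median, which is -3.21 on the left and 0.0 on the right.

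Other miRNA groups give a scale for these changes. At E15.5 minus E13.5, 7 of 8 tested features of the Mir290 to Mir295 cluster, the main miRNA cluster of pluripotent cells, were called lower (median -3.90), as were 7 of 7 of the Mir17-92 cluster, which promotes proliferation (median -3.91), and 2 of 5 of the Mir200 family of epithelial miRNAs (median -3.85). A feature is a gene or a group of genes sharing the same reads, so 1 gene can count in more than 1 feature. Scaled to miRNA-matching reads, 1 of 8, 0 of 7 and 0 of 5 were called lower, with medians of -0.81, -0.78 and -0.51. In SGET mPGCLCs minus E12.5 the medians were 0.49 for Mir290 to Mir295, with none of 8 called, -2.11 for Mir17-92, with 2 of 7 called lower, and 1.14 for Mir200, with none of 5 called. By log2 fold change the members thus lay between the medians of Mir17-92 and Mir290 to Mir295 in this comparison. Summed shares of mapping reads placed them differently. The Mir17-92 sums of the SGET libraries, 2.30% and 3.24%, lay within the E12.5 range of 2.19% to 3.50%. The sum of the 3 genes was lower in SGET mPGCLCs, with a mean of 1.83% against 3.69% for E12.5. By level over the 8 libraries, in log2 of CPM (scaled to mapping reads) plus 1, the 5 genes most like Mir182 among 335 were Mir30c-1/Mir30c-2 (Pearson r = 0.988), Mir16-1/Mir16-2 (0.985), Mirlet7g (0.981), Mir30d (0.979) and Mir96 (0.978). For Mir183 they were Mir298 (0.993), Mir96 (0.992), Mirlet7f-1/Mirlet7f-2 (0.987), Mir26b (0.980) and Mir181d (0.978). For Mir96 they were Mir183 (0.992), Mirlet7g (0.982), Mir298 (0.981), Mir182 (0.978) and Mirlet7f-1/Mirlet7f-2 (0.977). All these values share the drop of most miRNAs at E15.5, and the median r over genes was already 0.567 for Mir182, 0.549 for Mir183 and 0.569 for Mir96. Scaled to miRNA-matching reads, r between Mir182 and Mir183 was 0.693 and between Mir182 and Mir96 0.541, while that between Mir183 and Mir96 was 0.899.

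The 3 genes differed in length. Of Mir182 reads, 79.5% and 81.2% in E12.5 mPGCs, 78.7% and 80.0% in E13.5 mPGCs, 66.0% and 85.2% in E15.5 mPGCs and 68.2% and 69.9% in SGET mPGCLCs had 25 to 28 nt. The SGET libraries lay below those of E12.5 and E13.5, and the E15.5 libraries spread across the whole range. Over all libraries the share was 78.5% for Mir182 and 0.916% for Mir183, and Mir96 had no read of this length in any library (0 of 6253 reads in the second E12.5 library, which had the most). Among 245 miRNA genes that RefSeq also lists and that had at least 1000 reads, Mir182 ranked 5 and the median share was 1.27%. The genes above it, Mir103-2, Mir546, Mir702 and Mir3473f, held between 1698 and 20146 reads in all libraries together, against 1373597 of Mir182. Among all 313 GENCODE miRNA genes of that depth, predicted genes included, Mir182 ranked 26.

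The annotated length of 25 nt held most Mir182 reads in 7 of the 8 libraries, with 63.6% and 64.0% in E12.5 mPGCs, 59.0% and 59.1% in E13.5 mPGCs, 41.6% and 58.7% in E15.5 mPGCs and 56.1% and 58.3% in SGET mPGCLCs. Forms of 26 nt held 13.8% and 15.4% in E12.5 mPGCs, 16.9% and 17.4% in E13.5 mPGCs, 22.3% and 25.98% in E15.5 mPGCs and 11.4% and 8.96% in SGET mPGCLCs. This share thus stood higher at each later fetal stage and lowest in the cultured cells, without overlap between any groups. Reads of 24 nt ran from 12.1% to 19.7%, and those of 23 nt from 0.515% in the second E15.5 library to 10.5% in the first. Reads of 27 nt stayed at or below 2.65% and those of 28 nt at or below 0.922% in every library. At the edges of the length range, Mir182 had 0 to 321 reads of 20 nt and 0 to 4105 of 28 nt per library, against 0 to 399 of 18 to 19 nt and 0 to 1469 of 29 to 43 nt just outside it.

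**Figure D3:**
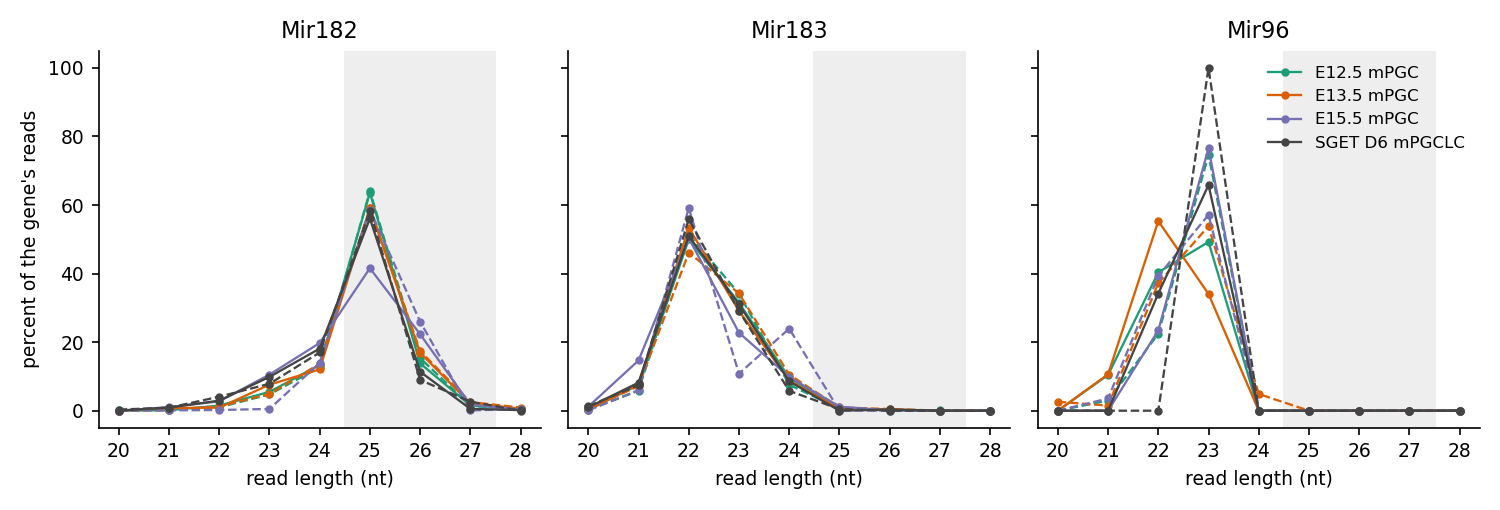
Percent of the reads of Mir182, Mir183 and Mir96 at each length from 20 to 28 nt, with a colour for each group, solid lines for replicate 1, dashed lines for replicate 2 and grey shading over 25 to 27 nt. Mir182 peaks at 25 nt inside the shading, whereas Mir183 and Mir96 peak at 22 to 23 nt outside it.

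The share of Mir182 reads with a non-matching 3′ end, by added or by changed bases, differed between the groups. Of its reads, 15.2% and 16.2% in E12.5 mPGCs, 19.5% and 20.8% in E13.5 mPGCs, 25.1% and 26.8% in E15.5 mPGCs and 11.7% and 10.5% in SGET mPGCLCs stopped matching the hairpin before their 3′ end. No groups overlapped. Over 90 miRNA genes with at least 100 reads in every library, the median of this share was 16.8% and 16.6% in E12.5 mPGCs, 15.7% and 19.6% in E13.5 mPGCs, 18.2% and 10.8% in E15.5 mPGCs and 12.8% and 11.5% in SGET mPGCLCs. From E12.5 to E13.5, 59 of the 90 genes had a higher mean share (median difference 2.24 percentage points, Mir182 4.45), and from E13.5 to E15.5 only 33 did (median -2.01, Mir182 5.80). In SGET mPGCLCs 58 of the 90 had a lower share than at E12.5 (median -3.82, Mir182 -4.65). The second E15.5 library, where the median was lowest, takes part in the middle comparison. Per library, between 21 and 48 of the 90 genes had a larger share than Mir182, the 21 in the second E15.5 library.

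Most non-matching ends of Mir182 were 1 added base after the annotated end. Adenine at this place made up 8.35% and 8.97% of Mir182 reads at E12.5, 12.1% and 11.2% in E13.5 mPGCs, 16.2% and 10.3% in E15.5 mPGCs and 5.81% and 4.49% in SGET mPGCLCs. Uridine made up 3.03% and 3.58% in E12.5 mPGCs, 3.25% and 4.51% in E13.5 mPGCs, 5.25% and 15.3% in E15.5 mPGCs and 3.51% and 3.34% in SGET mPGCLCs. Adenine was thus the more frequent in 7 of the 8 libraries, and uridine, with 5848 reads against 3951, in the second E15.5 library. In SGET mPGCLCs adenine took 59.1% and 57.3% of all 1-nt non-matching ends of Mir182, against 71.9% to 76.8% in the E12.5 and E13.5 libraries. Longer ends that matched the hairpin, by contrast, held only 2.43% ± 0.206 (SD, n = 2) of Mir182 reads at E12.5, 1.67% ± 0.175 in E13.5 mPGCs, 0.434% ± 0.336 in E15.5 mPGCs and 2.34% ± 0.441 in SGET mPGCLCs. Untailed ends short of the annotated end held 17.8% ± 0.792 in E12.5 mPGCs, 18.8% ± 0.389 in E13.5 mPGCs, 22.7% ± 11.5 in E15.5 mPGCs and 29.2% ± 0.863 in SGET mPGCLCs.

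The 27 nt form with AA had 331 and 1924 reads at E12.5, 1331 and 3649 in E13.5 mPGCs, 146 and 9 in E15.5 mPGCs and 0 and 1 in SGET mPGCLCs. It was the most abundant Mir182 sequence of 27 nt by mean share over the 8 libraries, but it was at or near the detection floor in the cultured cells although these held 486 and 2530 Mir182 reads of 27 nt. The 28 nt form with AAA was at 0 in both SGET libraries and had 73 and 778 reads at E12.5, 0 and 1806 in E13.5 mPGCs and 0 and 3 in E15.5 mPGCs, so replicates of a stage differed.

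Mir183 kept to the usual miRNA length, with a mean of 22.5 nt ± 0.00735 (SD, n = 2) in E12.5 mPGCs, 22.5 nt ± 0.0738 in E13.5 mPGCs, 22.4 nt ± 0.166 in E15.5 mPGCs and 22.4 nt ± 0.0535 in SGET mPGCLCs. It varied at both ends. The later start, which moves bases 2 to 8 from ATGGCAC to TGGCACT, made up 32.4% and 30.7% of Mir183 reads at E12.5, 27.9% and 29.04% in E13.5 mPGCs, 27.8% and 10.2% in E15.5 mPGCs and 27.7% and 28.5% in SGET mPGCLCs. About this share recurred in all libraries but the second E15.5 library. Non-matching 3′ ends made up 12.9% and 11.2% in E12.5 mPGCs, 12.0% and 13.9% in E13.5 mPGCs, 13.3% and 31.8% in E15.5 mPGCs and 7.78% and 6.63% in SGET mPGCLCs. SGET minus E12.5, the mean differed by -4.85 percentage points, and SGET minus E13.5 by -5.75, both without overlap and with p = 0.333 in the exact permutation test, the smallest it can give. Most of the 90 genes were lower in the same comparisons, 58 with a median of -3.82 against E12.5 and 61 with a median of -4.23 against E13.5. Of the 1-nt non-matching ends, adenine took 84.8% to 99.4% over all libraries. The leading such form, 24 nt with A, held 23.5% of Mir183 reads in the second E15.5 library against 3.01% to 6.96% in the others.

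**Figure D4:**
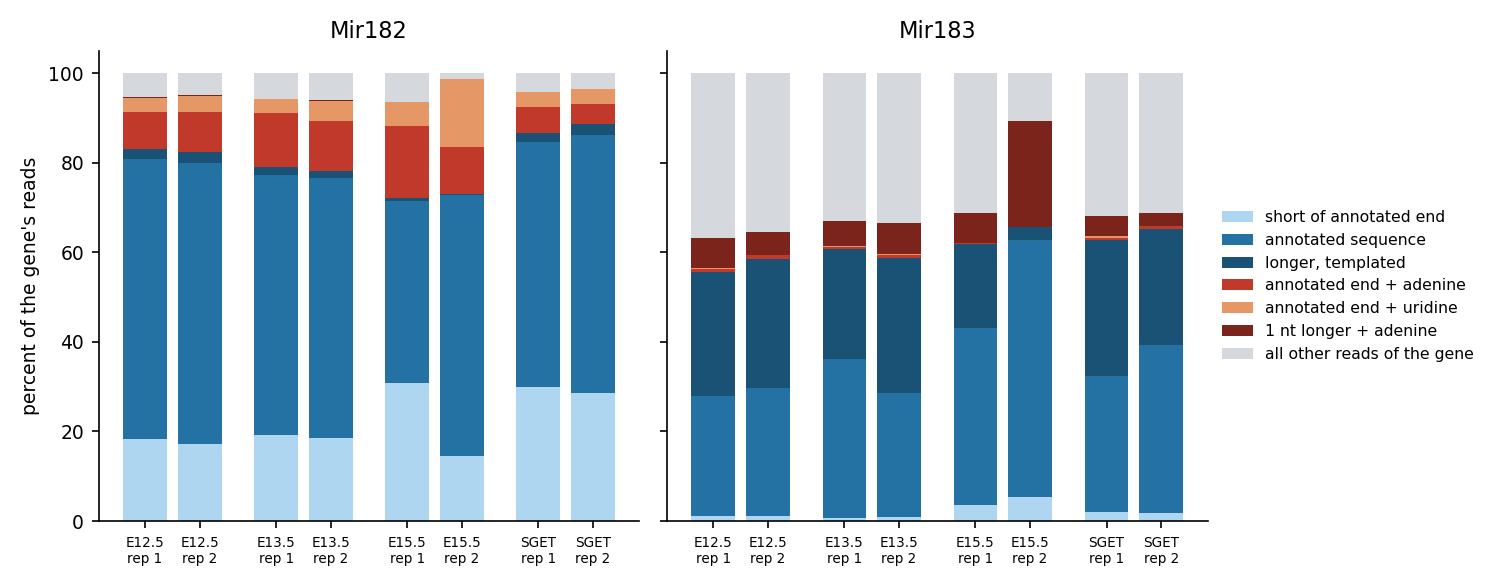
Percent of Mir182 (left) and Mir183 (right) reads by 3′ form in each library, stacked to 100, for reads with the annotated 5′ start, with all other reads of the gene (for Mir183 mostly those with the later 5′ start) in light grey. Added adenine of Mir182 (red) is larger at E13.5 than at E12.5 and smallest in SGET. In the second E15.5 library it is smaller than at E13.5, while added uridine (orange) is largest there. That library stands apart in both panels.

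Mir96 was the only member whose other arm was frequent. Its 3p arm and reads downstream of it held 31.6% and 17.6% of Mir96 reads in E12.5 mPGCs, and 34.2% and 30.2% in E13.5 mPGCs. They had 0 of 111 and 8 of 28 reads at E15.5 and 0 of 799 and 0 of 1184 in SGET mPGCLCs, where few distinct sequences were present. The part of PCR copies in these values was not tested. The 3p arm held at most 0.488% of Mir182 reads and 2.77% of Mir183 reads in any library. At E12.5, 218 and 205 reads of Mir96 began near the end of the annotated hairpin and ran past it, so for Mir96 a non-matching end cannot be told from genomic sequence.

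The Mir182 forms that begin with U and have 25 to 27 nt overlap in length with the shorter fetal piRNAs, although the leading 25 nt form is shorter than the piRNA peak for which the study looked at 27 nt. Of all reads of 25 to 27 nt that begin with U, the 3 genes filled a share that differed between groups. They made up 55.2% and 64.4% of these reads at E12.5, 25.4% and 25.02% in E13.5 mPGCs, 0.334% and 0.320% in E15.5 mPGCs and 35.2% and 43.01% in SGET mPGCLCs. Nearly all were Mir182, with 86552 and 308575 reads at E12.5 against 783 and 1496 of Mir183 and none of Mir96. No groups overlapped. All miRNA genes together made up 67.6% and 77.2% of the window at E12.5, 32.0% and 34.7% in E13.5 mPGCs, 0.634% and 0.688% in E15.5 mPGCs and 44.3% and 54.8% in SGET mPGCLCs, so most miRNA reads of this window before E15.5 belonged to Mir182. The next gene, Mir92-1, had 2748 and 9247 reads there at E12.5.

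The window as a whole held 2.13% and 3.53% of mapping reads at E12.5, 4.77% and 7.19% in E13.5 mPGCs, 39.6% and 38.2% in E15.5 mPGCs and 1.72% and 1.64% in SGET mPGCLCs. Without the 3 genes it held 0.953% and 1.26% in E12.5 mPGCs, 3.56% and 5.39% in E13.5 mPGCs, 39.5% and 38.1% in E15.5 mPGCs and 1.12% and 0.932% in SGET mPGCLCs. The mean at E13.5 was 2.11 times that at E12.5 with the genes and 4.05 times without them, and that at E15.5 was 6.51 and 8.67 times that at E13.5. The mean of SGET mPGCLCs was 0.593 times that at E12.5 with the genes and 0.927 times without them. With the genes, the SGET libraries lay below both E12.5 libraries, and without them they overlapped. At 27 nt with U alone, leaving out the genes changed these values less. There the mean at E13.5 was 6.10 times that at E12.5 with the genes and 6.62 times without them. That at E15.5 was 8.19 and 8.38 times that at E13.5, and that of SGET mPGCLCs 1.14 and 1.21 times that at E12.5.

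Inside the window, the share of the 3 genes was lower at each longer length. At 25 nt with U they made up 71.3% ± 4.54 (SD, n = 2) of reads at E12.5, 51.8% ± 0.304 in E13.5 mPGCs, 1.06% ± 0.0636 in E15.5 mPGCs and 57.5% ± 0.863 in SGET mPGCLCs. At 26 nt these values were 50.8% ± 8.84, 17.7% ± 0.651, 0.271% ± 0.0216 and 26.3% ± 3.60 in the same order. Over 26 to 27 nt together they were 31.0% and 42.4% in E12.5 mPGCs, 9.87% and 9.94% in E13.5 mPGCs, 0.153% and 0.123% in E15.5 mPGCs and 12.53% and 19.3% in SGET mPGCLCs. At 27 nt they were 8.59% and 11.05% in E12.5 mPGCs, 2.19% and 2.38% in E13.5 mPGCs, 0.0223% and 0.000663% in E15.5 mPGCs and 1.11% and 9.08% in SGET mPGCLCs. Even at this length, up to 11.05% of the reads with U came from this 1 cluster at E12.5. Counted as distinct sequences, each once, the 3 genes made up 3.99% ± 1.30 of the 25 to 27 nt window at E12.5, 0.850% ± 0.326 in E13.5 mPGCs, 0.0403% ± 0.0249 in E15.5 mPGCs and 3.91% ± 1.02 in SGET mPGCLCs. The window held 268972 distinct sequences in the first E15.5 library and 101854 in the second, which had more reads.

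**Figure D5:**
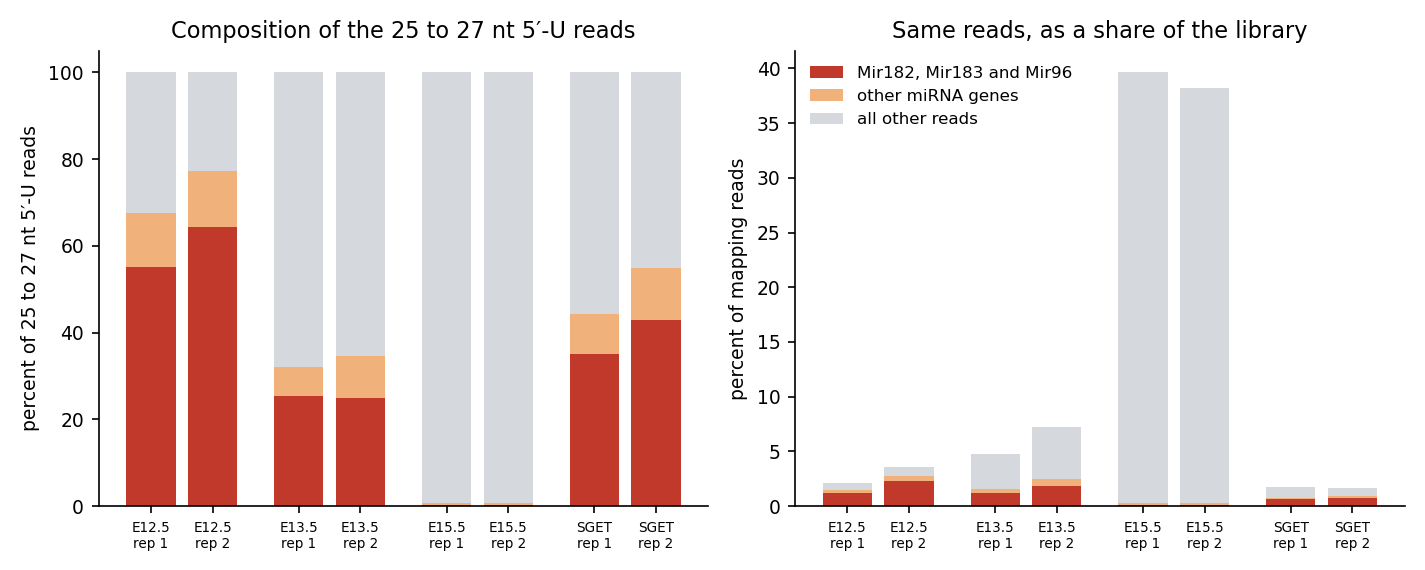
Reads of 25 to 27 nt beginning with U in each library, split into the 3 cluster genes, other miRNA genes and all other reads, as percent of these reads (left) and of mapping reads (right). The cluster genes fill between 55.2% and 64.4% in E12.5 mPGCs and at most 0.334% in E15.5 mPGCs, where the window itself is largest.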

How the data were processed

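Small RNA was sequenced from 8 libraries, 2 per group. The authors trimmed adapters and the 4 random bases at each end (cutadapt 3.2), mapped reads end to end to GRCm38 (STAR 2.5.3a), placed multimapping reads at 1 random position and deposited raw counts per distinct sequence, not normalized. The random bases were not used as molecular identifiers, so counts include PCR copies, and Wilson intervals (95%) and the floor of 3 counts cover counting error only. Both HiSeq and NovaSeq instruments were used and are not tied to single libraries, which leaves sequencing batch unknown.

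Distinct sequences of 20 to 28 nt were matched to GENCODE M21 miRNA transcripts (GRCm38) by their first 18 nt or more, and the rest of the read was called a non-matching 3′ end. The members and lists were chosen with earlier results of these data known. The main test per gene was the quasi-likelihood test on raw counts (edgeR 4.0.16 in R 4.3.3, 4 groups in 1 fit, filterByExpr, library size all mapping reads, Benjamini-Hochberg adjustment over all genes that passed, threshold 0.05), and each SE was derived from the F value. DESeq2 1.42.0 served as alternative. Both were run on simulated counts whose dispersion was far below the common value of 2.248 fitted to these data. The simulation held no shift of most genes, so it does not show how the tests behave here. Other values were computed with Python 3.11.15, pandas 2.3.3 and scipy 1.17.1. The sequences named were, per gene, the 5 with the highest mean share, plus the leading one of each length from 25 to 28 nt for Mir182, of which those that carry the results are printed. Lists were described by counts and medians. Replicate numbers come from the labels and, per the methods, mPGC replicates came from different litters. Other mPGCLC lines of the study were not analysed here.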

Additional observations from a re-analysis of the deposited data

Results flagged for a closer look

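Reads of Mir182 longer than 28 nt (29 to 43 nt) lay outside the lengths analysed and passed the floor of 3 counts in 6 libraries. The E12.5 mPGCs had 176 and 473 such reads, the E13.5 mPGCs 362 and 1469, the E15.5 mPGCs 30 and 4, and both SGET libraries 0.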

How the results depend on the processing

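Of 168 fold changes of the 3 genes under alternative settings, 164 were below 0. These settings refit the same 8 libraries, so this is no independent support. In the main fits 224, 409, 264 and 279 of 506 miRNA genes were below 0 in the 4 comparisons. Of all 488 alternative values, 377 were counted as unchanged. For Mir183 and Mir96 fold changes this meant the same sign and call, and for Mir182 a value within the SE of the main fit. Counts of called genes had to stay within a fixed factor, and shares within the spread between replicates. With 2 libraries in each group, a share recomputed without 1 of them always stays within that spread. Such values are part of the 377 and say nothing about robustness. The cause of the changes named here was not tested. With miRNA-matching reads as library size, called miRNA genes numbered 5 for E13.5 minus E12.5, 23 for E15.5 minus E13.5 and 55 for SGET minus E12.5, and Mir183 and Mir96 at E15.5 minus E13.5 (-0.66, -2.48) lost their call while Mir183 in SGET minus E12.5 (-0.90) gained it. TMM (3 and 23 called genes in the first 2 comparisons) and DESeq2 (7 in the first) gave -0.72 and -2.71, and -0.29 and -2.15, for Mir183 and Mir96 at E15.5 minus E13.5, all without a call. With only the groups compared, 16 genes were called in SGET minus E13.5. A replicate block gave 2 calls in E13.5 minus E12.5 and changed no call of Mir183 or Mir96. The block together with miRNA-matching reads, chosen after seeing the data, gave 7, 22, 55 and 57 calls in the 4 comparisons, -0.74 and -2.70 for Mir183 and Mir96 at E15.5 minus E13.5 (not called) and -0.96 for Mir183 in SGET minus E12.5 (called). Same-numbered libraries deviated together with correlations of 0.150, -0.0166, 0.00713 and 0.0572, and with only 2 numbers per comparison, and none that the labels tie to a shared batch, they were not used to pair libraries. Leaving out a library gave 53 (second E13.5) or 57 (second E15.5) to 75 calls in E15.5 minus E13.5. The range was 17 (second E12.5) to 26 in SGET minus E12.5 and 19 (first E13.5) to 28 in SGET minus E13.5. It moved Mir183 between -0.57 and 0.02996 for E13.5 minus E12.5, where without the second E12.5 library Mir183 (0.02996) and Mir182 (0.37) were above 0, and Mir96 between -7.55 and -4.61 at E15.5 minus E13.5. The summed share of the 3 genes was 16.1%, 13.1%, 9.22% and 7.44% of miRNA-matching reads in the order E12.5, E13.5, E15.5 and SGET, and 1.67% of mapping reads in SGET with exact matches only. The share of Mir182 reads of 25 to 28 nt was 66.7%, 66.9% and 59.9% over distinct sequences and 77.2%, 74.9% and 65.7% with exact matches at E12.5, E13.5 and in SGET. From 26 nt on it was 16.6%, 20.3%, 25.5% and 11.9% in the 4 groups. The share of the 25 to 27 nt window beginning with U was, in the same order, 9.82%, 2.29%, 0.0115% and 5.10% at 27 nt, 36.7%, 9.90%, 0.138% and 15.9% at 26 to 27 nt, 30.3%, 17.8%, 0.266% and 14.9% with any first base, 3.99%, 0.851%, 0.0403% and 3.91% over distinct sequences and 48.4%, 18.98%, 0.214% and 32.98% with exact matches.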

Other observations

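The choice of the miRNA denominator touched E15.5 most. Predicted miRNA genes that RefSeq does not list took 9.68% and 14.9% of miRNA-matching reads at E15.5 against 5.64% to 6.61% in the other libraries. With RefSeq genes alone as denominator, a setting chosen after seeing the data, Mir182 took 9.80% ± 1.15 (SD, n = 2) of miRNA reads in E12.5 mPGCs, 8.29% ± 0.00489 in E13.5 mPGCs, 6.73% ± 0.512 in E15.5 mPGCs and 4.07% ± 0.884 in SGET mPGCLCs, in the same order as before.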
